A study of Mus musculus with 4 samples.

Results

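A mock knockdown aimed at GFP was compared with no knockdown at all in RIF-1 cells, a mouse fibrosarcoma line. GFP is a jellyfish protein with no gene in the mouse genome, so a mock knockdown of it stands for the act of RNA interference without a mouse target. All 4 arrays of the 4 in the series enter this comparison, and no array carried both control RNAs. The Cy3 channel held RNA of mock (GFP) knockdown cells on 2 arrays and RNA of cells with no knockdown on the other 2. The Cy5 channel held RNA of Bre1a knockdown cells on 1 array of each kind and RNA of Bre1b knockdown cells on the other. Bre1a and Bre1b (mouse genes Rnf20 and Rnf40) encode the partners of the ubiquitin ligase for histone H2B. The labels give neither the reagent used for RNA interference nor its dose, the time of harvest, or whether the RNAs came from separate cultures. No p-value below can therefore speak for more than these 4 hybridisations, whose spread may be a technical one.

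On each array a gene has 1 deposited value, the log2 of knockdown over control. Subtracting a gene's ratio over mock from its ratio over no knockdown, within 1 knockdown, removes the knockdown RNA and leaves mock over no knockdown. A gene with a lower ratio over mock was thus higher in mock cells. The subtraction was made once with the Bre1a arrays and once with the Bre1b arrays, and each difference is given below as mock minus no knockdown in log2, with the mean ± SD over both (n = 2). A dye bias that is equal on both arrays of a pair drops out as well. Both pairs may have used the same extracts of mock and untreated cells, so the SD may hold no biological spread. A ratio says nothing of a gene's level, so the label RIF-1 could not be checked against the levels of marker genes, and fewer cells with an RNA cannot be told apart from less RNA per cell.

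Cells answer foreign RNA and the handling of a transfection through a small set of well known programs. Double-stranded RNA in the cytosol is bound by sensors such as the Oas enzymes and Ifih1, and type I interferon then induces antiviral genes such as Ifit1 through factors that include Stat2 and Irf9. Interferon gamma acts, in part through Irf1, on the guanylate-binding proteins and on the immunoproteasome. Fibroblasts also change their contractile and matrix genes with cell density, adhesion and TGF-beta, and their mitotic and histone genes with the rate of division.

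The genes of these programs did not move in 1 direction. Mock cells had more RNA of Acta2 (smooth muscle actin) and of some other contractile and matrix genes. Other members of those lists, such as Mrtfb and Tnc, were lower. Mock cells also had more RNA of lipid synthesis enzymes and of some interferon-induced genes such as Gbp2. They had less RNA of Ifit1, of most measured histones and of mitotic genes such as Plk1. Of 8676 genes with a value on all 4 arrays, 1161 passed the test, 13.4% (limma, Benjamini-Hochberg adjusted p under 0.05). They were 630 genes higher in mock, 7.26%, and 531 genes lower, 6.12%. The median over all genes was -0.01. Every gene said here to have risen or fallen had a limma adjusted p between 0.0475 and 0.0497, so all of them sat close to the threshold. The count went to 0 when arrays were scaled to 1 spread, when 1 probe was taken per gene, when each probe was tested on its own and when the pairing of arrays was left out, and 3854 genes had an unadjusted p under 0.05.

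Counts by size do not rest on that threshold. At least 2-fold in the same direction in both pairs were 131 genes higher in mock, 1.51%, and 68 genes lower, 0.784%, while 19 genes were past 2-fold in opposite directions. Of those 199 genes, 165 passed the test. The excess of higher genes is that of named genes: the same count over all 18620 probes with 4 values gave 231 higher and 224 lower, and over the 5662 unnamed ones 58 higher and 123 lower. A single pair alone put 487 genes past 2-fold with the Bre1a arrays and 398 with the Bre1b arrays. For 132 of the 199 genes the Bre1a knockdown looked like a rise against 1 control and a fall against the other, and for 79 the Bre1b knockdown did.

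**Figure D1:**
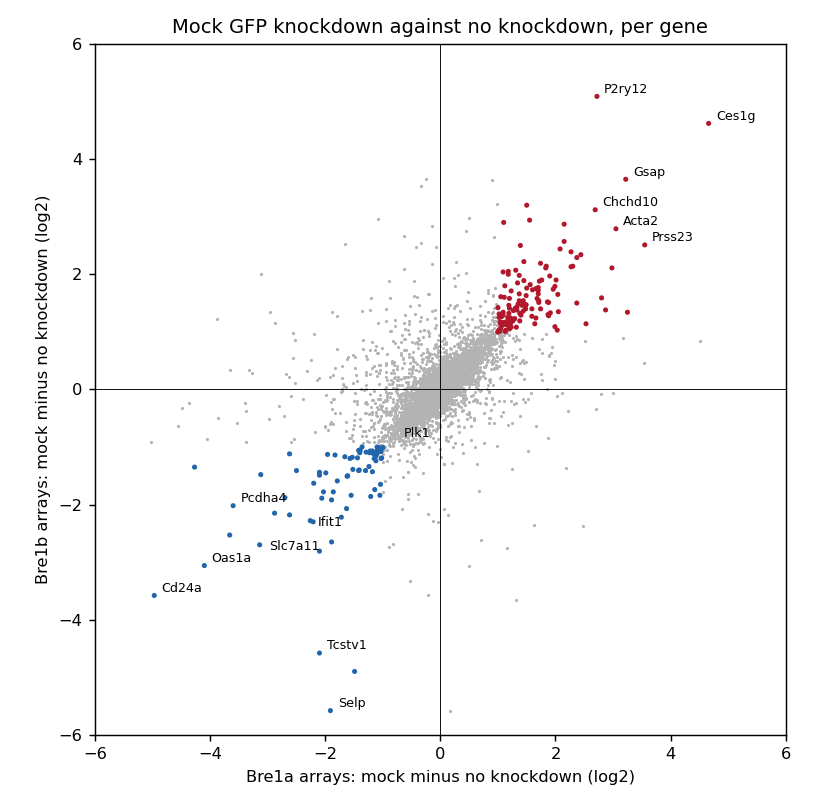
Each point is 1 of 8676 genes, with mock minus no knockdown in log2 from the Bre1a arrays on the x axis and from the Bre1b arrays on the y axis. Red points are the 131 genes at least 2-fold higher in mock in both pairs and blue points the 68 at least 2-fold lower. Grey points are all other genes, and the pairs may share control extracts.

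The difference in Ces1g, a carboxylesterase that splits lipid and drug esters, was the largest in size among genes higher in mock in both pairs. Its log2 ratios over mock were -2.95 with Bre1a and -2.87 with Bre1b, against 1.71 and 1.75 over no knockdown. Each knockdown was therefore far below mock and above untreated cells, and the control arrays did not overlap. Ces1g rose by 4.64 ± 0.03.

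Acta2, the actin of smooth muscle and of contractile fibroblasts, had log2 ratios of -0.22 and -1.23 over mock, against 2.83 and 1.56 over no knockdown. Both ratios over mock lay below both over no knockdown. Acta2 rose by 2.92 ± 0.18, or 7.56-fold.

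The 12 genes highest in mock, ranked by the smaller of the 2 differences, also held Gsap, which encodes the gamma-secretase activating protein and rose by 3.43 ± 0.31. Chchd10, a mitochondrial protein, rose by 2.90 ± 0.30, and Prss23, a serine protease, by 3.03 ± 0.74. Cldn1, a tight junction claudin, rose by 2.36 ± 0.29. Tmem100, a membrane protein of the BMP9 and ALK1 pathway in endothelium, rose by 2.51 ± 0.51, and Medag, a gene of fat cell formation, by 2.22 ± 0.11. Col8a1, Fhl1 and Ankrd1 complete the called ones and are described with their groups. P2ry12, an ADP receptor of platelets and microglia, differed by 2.72 and 5.09 in the Bre1a and Bre1b pairs and did not pass (limma adjusted p 0.0681).

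Cd24a, a small glycoprotein anchored in the cell surface, was the lowest gene. Its log2 ratios were 4.76 and 4.44 over mock, against -0.21 and 0.86 over no knockdown. Both knockdowns thus looked strongly raised when set against mock. Against untreated cells the Bre1a knockdown was slightly lower and the Bre1b knockdown higher. Cd24a fell by 4.27 ± 0.98 on the log2 scale, to 5.17% of its amount in untreated cells.

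Slc7a11, the cystine importer that feeds glutathione synthesis, had ratios of 1.73 and 1.77 over mock, against -1.41 and -0.93 over no knockdown. The arrays of the controls stood clear of each other. Slc7a11 fell by 2.92 ± 0.31, with its 2 probes at -3.27 and -2.56.

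Krt16, a keratin of stressed epidermis, fell by 3.09 ± 0.80 and Bfsp2, a filament protein of the lens, by 2.51 ± 0.51. Rorb, an orphan nuclear receptor, fell by 2.46 ± 0.50, though its 2 probes differed, at -3.29 and -1.62. Fam167a fell by 2.40 ± 0.31. Among the 12 lowest, Tcstv1 (adjusted p 0.0851), the protocadherin Pcdha4 (0.0639) and the adhesion receptor Selp (0.124) did not pass in limma, with means of -3.34, -2.81 and -3.75. Selp differed by -1.91 in the Bre1a pair and -5.58 in the Bre1b pair, so its sign was the same and its size was not.

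**Figure D2:**
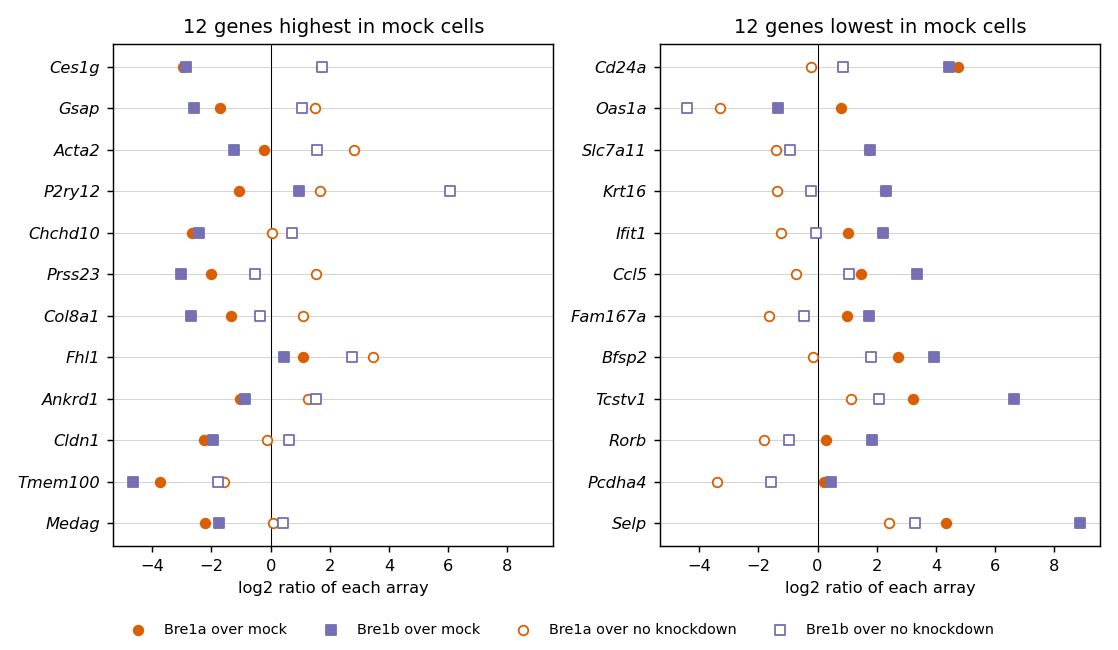
The log2 ratio on each of the 4 arrays is plotted for the 12 genes highest (left) and the 12 lowest (right) in mock cells. Filled symbols are ratios over mock and open symbols ratios over no knockdown, circles for Bre1a and squares for Bre1b. On the left every filled symbol lies below the open one of the same knockdown, and on the right above it. This order follows from the rule that picked these genes.

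Single genes of double-stranded RNA sensing and interferon went both ways. Oas1a and Ifit1 fell, while Gbp2 and parts of the immunoproteasome rose. Of 38 measured genes of the interferon-induced antiviral list, 10 rose and 3 fell, with a median of 0.21. Of all genes 7.26% rose and 6.12% fell, so the falls are near the share of all genes. The list of interferon-induced GTPases and antigen presentation had 5 risen and 0 fallen of 18, with a median of 0.48 and 16 of 18 above 0 in both pairs, against 37.8% of all genes.

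Promoters of interferon-induced genes can carry the interferon-stimulated response element, which is printed here for 2 genes that fell and 1 that rose because they share its letters. The windows are the 250 bases before the RefSeq start on GRCm38.p6, 5′ to 3′ on the gene's strand, and the capitals mark matches to its core, a pair of GAAA with any 2 bases between them, on either strand.
Ifit1, chr19:34640639-34640888, strand +: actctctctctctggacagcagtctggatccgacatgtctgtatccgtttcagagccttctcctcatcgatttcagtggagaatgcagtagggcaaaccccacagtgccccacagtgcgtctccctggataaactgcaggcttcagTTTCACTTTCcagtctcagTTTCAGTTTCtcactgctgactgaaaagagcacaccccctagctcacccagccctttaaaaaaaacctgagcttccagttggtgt
Ifit3, chr19:34583279-34583528, strand +: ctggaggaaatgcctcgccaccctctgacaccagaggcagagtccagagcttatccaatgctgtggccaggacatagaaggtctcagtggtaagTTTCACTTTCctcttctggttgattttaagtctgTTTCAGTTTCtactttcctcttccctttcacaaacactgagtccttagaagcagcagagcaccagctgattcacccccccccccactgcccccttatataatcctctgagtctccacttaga
Gbp2, chr3:142620413-142620662, strand +: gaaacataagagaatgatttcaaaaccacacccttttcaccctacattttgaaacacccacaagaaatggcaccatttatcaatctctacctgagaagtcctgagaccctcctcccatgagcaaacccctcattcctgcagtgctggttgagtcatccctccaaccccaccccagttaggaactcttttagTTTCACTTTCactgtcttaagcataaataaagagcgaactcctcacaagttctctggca
The same letters, TTTCACTTTC, stand in all 3 windows. Among other genes with the core in a window, Oas1a and Socs1 fell and Bst2 rose. Irf2 (0.01), Irgm1 (0.05), Ifitm2 (0.06), Ifi205 (0.08) and B2m (0.08) also hold it and did not pass. Nor did Gbp7 (0.91), Igtp (0.36), Stat2 (0.27), Irgm2 (0.26) or Isg15 (-0.39), which hold it as well. The core was found in 20.9% of the antiviral windows (9 of 43) and in 35.3% of those of the GTPase and antigen list (6 of 17). It stood in 5.88% of the windows of nucleic acid sensors (1 of 17) and in 2.98% of all 32851 promoter windows. These windows carry no measurement on the arrays, and a match is not shown to be a binding site.

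Oas1a, which makes the signal that switches on RNase L when it meets double-stranded RNA, had log2 ratios of 0.78 and -1.35 over mock, against -3.31 and -4.41 over no knockdown. The arrays did not overlap. Oas1a fell by 3.58 ± 0.73, to 8.36% of untreated cells. Of the other measured Oas genes, Oasl2 was at 0.24 ± 0.12 and did not pass (limma adjusted p 0.124). The rest had values in 1 pair only and were not tested, at -3.28 for Oasl1 and 2.88 for Oas1c in the Bre1a pair and at 1.73 for Oas1g in the Bre1b pair, so the family did not have 1 direction, and related sequences may share a probe.

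Ifit1, whose product binds viral RNA without a host cap, had ratios of 1.04 and 2.22 over mock, against -1.22 and -0.06 over no knockdown. Both ratios over mock lay above both over no knockdown. Ifit1 fell by 2.27 ± 0.01, to 20.7% of untreated cells.

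Its neighbour Ifit3 fell by 1.46 ± 0.09, with 3 probes between -1.85 and -0.95. Socs1, the inhibitor that shuts off interferon signalling, fell by 1.04 ± 0.16, with probes at -1.73 and -0.34. Usp18, a protease that removes Isg15, was lower in both pairs and did not pass (-1.54 ± 0.46, limma adjusted p 0.0527), nor did Irf9 (-0.78 ± 0.27, 0.0599) or Isg15 (-0.39 ± 0.06, 0.0551). Ifit2 was near 0, at 0.05. Rsad2, an antiviral enzyme of the same program, had a value in the Bre1b pair only, -2.76, and Cmpk2 in the Bre1a pair only, 1.27.

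Sp110, a nuclear body protein, rose by 1.70 ± 0.26 and its relative Sp100 by 0.84 ± 0.09. Ifi47, an interferon gamma-induced GTPase, rose by 0.90 ± 0.01, Isg20, an RNA exonuclease, by 0.86 ± 0.01, and Irf1 by 0.78. The receptor chains Ifngr1 and Ifngr2 rose by 0.81 ± 0.02 and 0.41 ± 0.01, and Phf11d, Bst2 and Parp9 by 0.45 to 0.62. The 3 Ifitm genes measured had the 1 value that recurs on 691 to 828 spots of an array (the repeated value), where a spot may hold no measured difference. Socs1, named above, also had a spot at the repeated value. Without such spots 2 genes of the antiviral list fell in place of 3, beside 708 of all 8264 genes.

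Gbp2, a guanylate-binding protein that attacks the vacuoles of microbes, had ratios of -0.85 and -2.12 over mock, against 0.15 and -1.12 over no knockdown. The 2 kinds of array overlapped, since the Bre1b knockdown itself was low, and only the differences within a pair separate them. These were 1.00 in both pairs, which is 2.00-fold. The immunoproteasome subunits Psmb10 and Psmb8 rose by 0.85 ± 0.02 and 0.53, its activator Psme1 by 0.71 ± 0.06 and the peptide loader Tapbp by 0.66 ± 0.07. Gbp7 and Gbp9 were at 0.91 ± 0.23 and 0.80 ± 0.23 and did not pass (limma adjusted p 0.0510 and 0.0536). Psmb9 and Erap1, at 0.74 ± 0.27 and 0.94 ± 0.32, did not pass either. Nor did Igtp (0.36), Irgm2 (0.26), B2m (0.08), Irgm1 (0.05) or Tap1 (-0.09).

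**Figure D3:**
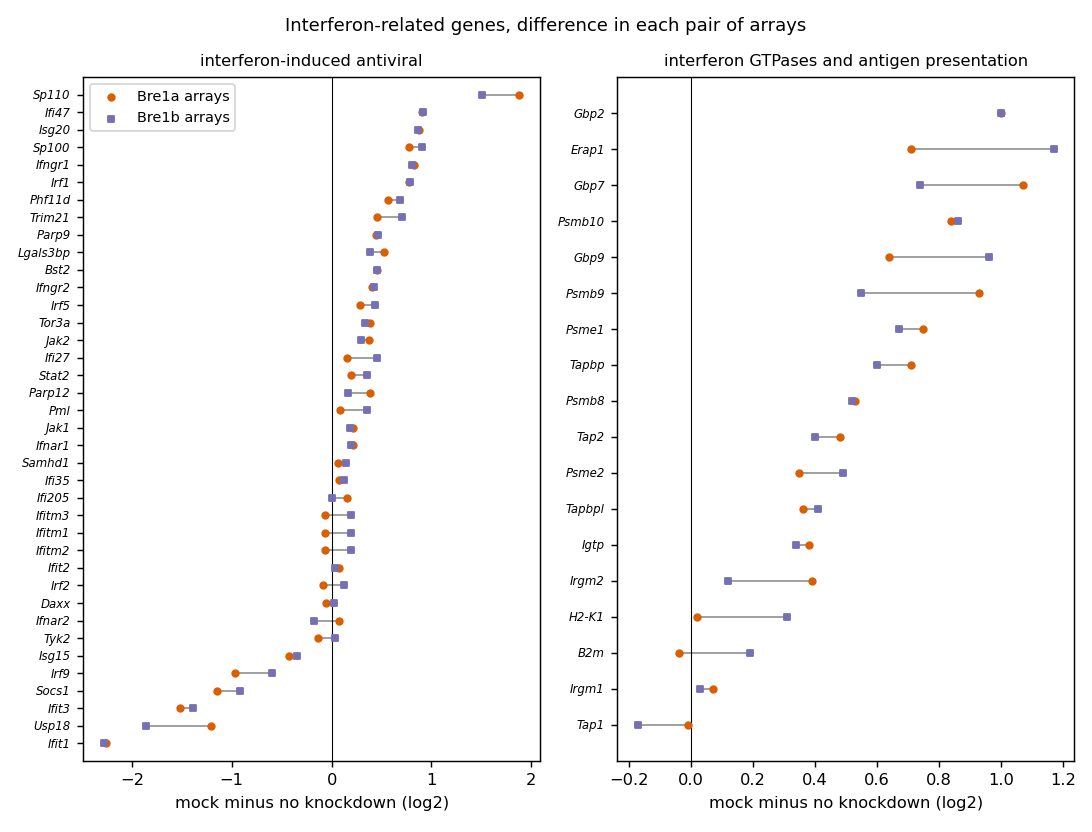
Mock minus no knockdown in log2 (x axis) is shown for each measured gene of the antiviral list (left) and of the GTPase and antigen presentation list (right). Circles are the Bre1a arrays, squares the Bre1b arrays and lines join both values of a gene. Ifit1, Usp18, Ifit3 and Socs1 lie lowest on the left, and on the right 16 of 18 genes lie above 0 in both pairs.

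Among 16 nucleic acid sensors and adaptors 1 rose and 1 fell, with a median of -0.02. Both are near the 7.26% and 6.12% of all genes. The gene that fell is Oas1a, and the one that rose is Ifih1, the sensor of long double-stranded RNA, by 0.47 ± 0.01. Of 17 genes of the RNA interference machinery, the helicase Mov10 rose by 0.62 ± 0.12 and 0 fell, with a median of -0.04.

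Cytokine and NF-kB target genes also went both ways, with 12 risen and 4 fallen of 34 and a median of 0.28 (all genes: 7.26% and 6.12%). Ccl5, a chemokine that draws T cells and is induced by interferon and NF-kB, had ratios of 1.46 and 3.37 over mock, against -0.74 and 1.07 over no knockdown. It fell by 2.25 ± 0.07. The cytokine Il11 fell by 1.41 ± 0.01, Ptgs2, the inducible cyclooxygenase, by 0.65 ± 0.02, and the stromelysin Mmp3 by 0.51 ± 0.03. The genes that rose included Mmp13, a collagenase, by 1.80 ± 0.11, the adhesion molecule Vcam1 by 1.59 ± 0.40, Il15 by 1.28 ± 0.13 and Ccl2 by 0.93 ± 0.16. The NF-kB inhibitors Tnfaip3, Nfkbie and Nfkbia rose by 0.67 ± 0.04, 0.60 ± 0.02 and 0.44 ± 0.04.

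Contractile and actin genes had a median of 0.09, and 6 rose and 3 fell of 39, the falls close to the share of all genes (7.26% risen and 6.12% fallen). The rise was thus not shared by the list, although it held the gene Acta2. Fhl1, a LIM protein of muscle, had ratios of 1.10 and 0.46 over mock, against 3.47 and 2.75 over no knockdown. It rose by 2.33 ± 0.05, or 5.03-fold. Mylk, the kinase that activates myosin II, rose by 1.03 ± 0.01 and the calponins Cnn2 and Cnn3 by 0.51 ± 0.03 and 0.48 ± 0.01. Mrtfb, a coactivator of serum response factor, fell by 1.13 ± 0.08 and the small GTPase Rhob by 0.71. Srf itself was at -0.03 ± 0.16.

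Serum response factor binds the CArG box, found in 9 of 45 promoter windows of the contractile list, against 1.47% of all windows. The Fhl1 window is printed because it holds one, in capitals, and Fhl1 rose in both pairs.
Fhl1, chrX:56779433-56779682, strand +: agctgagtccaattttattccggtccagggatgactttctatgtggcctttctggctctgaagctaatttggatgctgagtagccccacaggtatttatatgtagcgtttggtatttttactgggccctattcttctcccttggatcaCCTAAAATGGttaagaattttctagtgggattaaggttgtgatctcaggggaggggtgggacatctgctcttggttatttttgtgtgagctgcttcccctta
The Acta2 window of the same length holds no match, which says only that the letters searched are not in those bases. The pattern searched was CC and GG around a fixed run of only A or T. A box with another base inside that run would be missed.

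Of the genes that TGF-beta and BMP signals act on, 7 rose and 4 fell of 39, with a median of 0.05, where all genes had 7.26% risen and 6.12% fallen. Ankrd1, a muscle ankyrin repeat protein, had ratios of -1.02 and -0.86 over mock, against 1.25 and 1.53 over no knockdown. Ccn2, connective tissue growth factor, had 0.29 and 1.01 over mock, against 2.28 and 2.80 over no knockdown. Neither gene overlapped between the controls. Ankrd1 rose by 2.33 ± 0.08 and Ccn2 by 1.89 ± 0.14. The Tead motif GGAATG, on either strand, stood in 4 of 35 promoter windows of this list, 11.4%, against 12.6% of all windows. The related Ccn1 rose by 0.47 ± 0.03, and the activin binders Fst and Fstl3 by 0.76 ± 0.12 and 0.69 ± 0.07. Id4 and Bmp2, of the BMP arm, fell by 1.04 ± 0.02 and 0.87 ± 0.01.

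Collagen and matrix genes had 9 risen and 3 fallen of 52, with a median of 0.21, and of all genes 7.26% rose and 6.12% fell, so the falls are at the share of all genes. Col8a1, a short-chain collagen, rose by 2.39 ± 0.07 and Col18a1, the source of endostatin, by 1.46 ± 0.12. The collagen prolyl hydroxylases P4ha3 and P4ha1 rose by 0.98 ± 0.01 and 0.84 ± 0.01 and the crosslinking enzymes Loxl1 and Loxl2 by 0.68 and 0.67 ± 0.05. Tnc, tenascin C, fell by 1.42 ± 0.01 and the proteoglycan Vcan by 0.71 ± 0.07.

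Histone genes of the S phase clusters were mostly lower in mock. Of 44 measured, 25 fell and 1 rose, against 6.12% and 7.26% of all genes, and their median was -0.64. By class, 10 of 11 genes of H4, 5 of 7 of H3, 8 of 13 of H2B and 1 of 3 of H1 fell, with medians of -0.82, -1.14, -0.53 and -0.73. In size, 25 of the 44 were at least 0.5 lower and 1 at least 0.5 higher in both pairs, against 5.45% and 6.86% of all genes. The H2A class had 1 fallen and 1 risen of 10, and 7 of those 10 sat at the repeated value. The copies of a class are nearly identical in sequence, so probes may read several of them, and these are not independent genes.

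H3c1, an H3.1 gene, had ratios of 1.37 and 1.91 over mock, against -0.26 and -0.16 over no knockdown. Both knockdowns had more of it than mock cells and about as much as untreated cells. H3c1 fell by 1.85 ± 0.31, to 27.7% of untreated cells. H3c7 fell by 1.69 ± 0.14, H4c14 by 1.31 ± 0.17, H2ac4 by 1.25 ± 0.21 and H2bc8 by 1.12 ± 0.19. H2ac18 was the one that rose, by 0.58 ± 0.05. H1f1 and H3c15, at -2.06 ± 2.10 and -1.28 ± 1.57, differed between the pairs by more than their mean and did not pass. H3c8 had a value in the Bre1b pair only, -5.42.

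Mitotic genes were lower by smaller amounts. Of 78 measured genes of G2 and mitosis, 18 fell and 0 rose, against 6.12% and 7.26% of all genes, with a median of -0.31. Below 0 in both pairs were 69 of them and above 0 were 3, against 42.2% and 37.8% of all genes. Plk1, a kinase that drives mitotic entry and spindle assembly, had ratios of 0.60 and 0.37 over mock, against -0.17 and -0.35 over no knockdown. Its arrays did not overlap. Plk1 fell by 0.74 ± 0.04, to 59.7% of untreated cells.

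Ccnf, cyclin F, had ratios of 1.89 and 0.91 over mock, against 0.78 and -0.16 over no knockdown. It fell by 1.09 ± 0.02. The kinetochore protein Ndc80 fell by 0.65 ± 0.06, the kinase Aurka by 0.57 ± 0.09, the kinesin Kif18b by 0.71 ± 0.11, the phosphatases Cdc25b and Cdc25c by 0.56 ± 0.01 and 0.48 and the lamin Lmnb1 by 0.77 ± 0.03. Cdc20, which activates the anaphase ligase, was at -0.97 ± 0.36 and did not pass (limma adjusted p 0.0632). Cdk1 and Cks1b sat at the repeated value.

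Genes that peak in G2 often hold the cell cycle genes homology region, TTTGAA, which stood on 1 of the 2 strands in 25 of 68 windows of this list, 36.8%, against 5252 of all 32851 windows. A CCAAT box stood in 70.6% of them and in 79.5% of the histone windows, against 33.8% of all windows. It also stood in 62.5% of the windows of cholesterol and fatty acid synthesis, a list with 11 risen and 0 fallen. The window of Ccnf is printed as the lowest member of the list, with TTTGAA in capitals.
Ccnf, chr17:24251410-24251659, strand -: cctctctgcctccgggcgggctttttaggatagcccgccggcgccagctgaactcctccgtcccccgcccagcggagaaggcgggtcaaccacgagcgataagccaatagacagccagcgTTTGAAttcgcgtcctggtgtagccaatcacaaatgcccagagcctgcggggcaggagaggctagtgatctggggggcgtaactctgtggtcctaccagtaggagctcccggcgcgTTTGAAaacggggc

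Of the 63 measured genes of DNA replication 1 rose and 1 fell, against 7.26% and 6.12% of all genes, with a median of -0.09. Below 0 in both pairs were 38 of them and above 0 were 16, against 42.2% and 37.8% of all genes. Dbf4, which activates the origin kinase Cdc7, fell by 0.51 ± 0.01 and E2f1, a factor for S phase genes, rose by 0.42 ± 0.02.

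**Figure D4:**
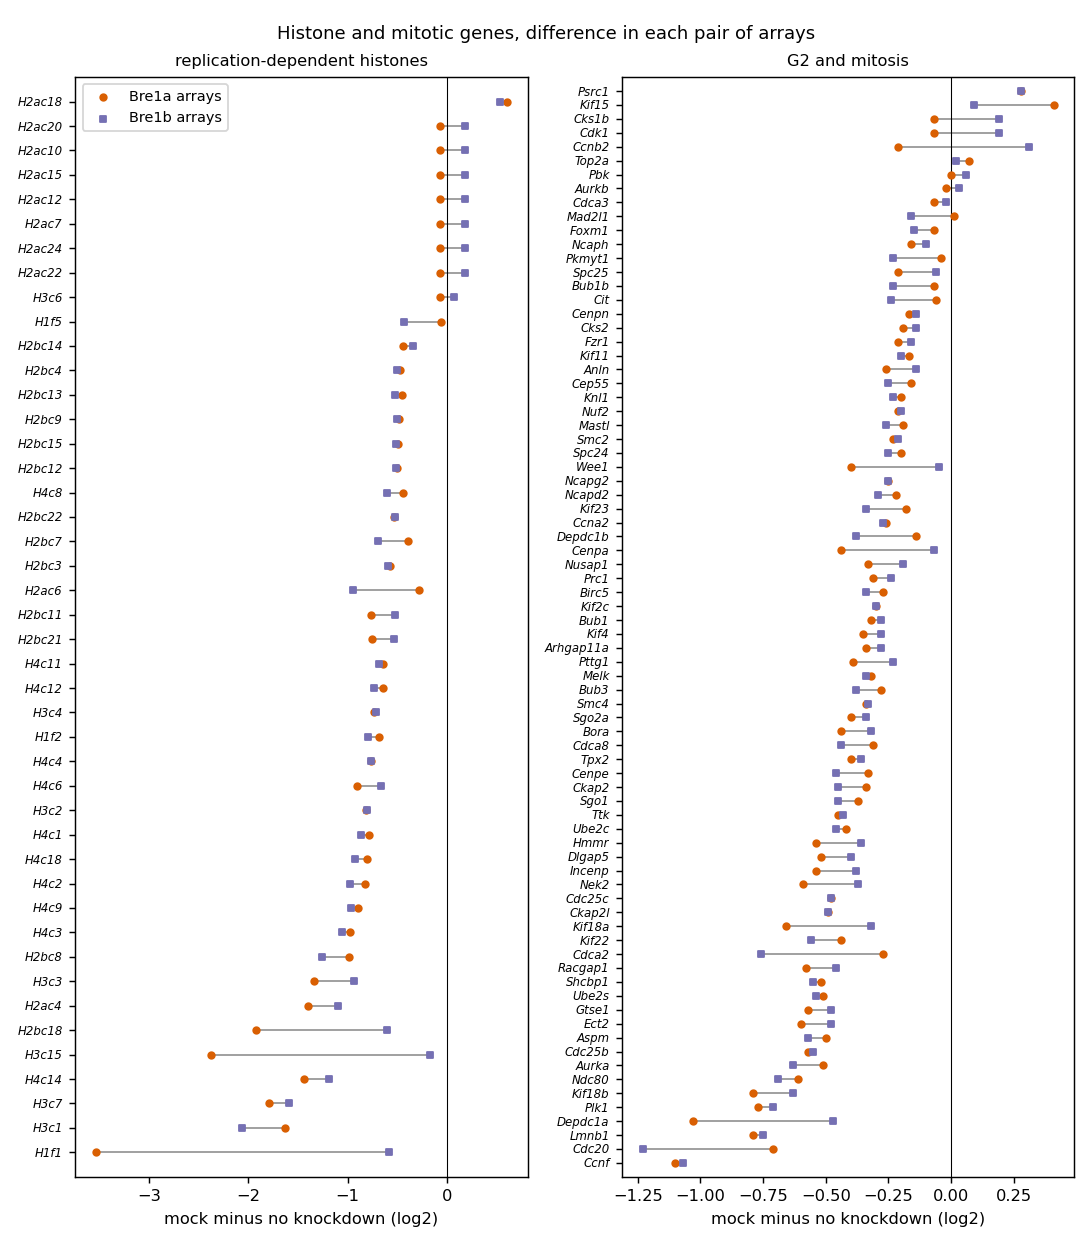
Mock minus no knockdown in log2 (x axis) is shown for 44 replication-dependent histone genes (left) and 78 genes of G2 and mitosis (right). Circles are the Bre1a arrays, squares the Bre1b arrays and lines join both values of a gene. Most points lie below 0, and the row of H2A genes near 0 at the upper left had the repeated value.

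Enzymes of cholesterol and fatty acid synthesis moved the other way. Of 30 measured, 11 rose and 0 fell, against 7.26% and 6.12% of all genes, and 28 were above 0 in both pairs, with a median of 0.37. Lss, lanosterol synthase, rose by 1.00 ± 0.18, though its 2 probes were at 0.46 and 1.54. Scd1, the stearoyl-CoA desaturase, had ratios of -1.96 and -2.36 over mock, against -1.08 and -1.40 over no knockdown. Both knockdowns were thus below both controls and further below mock, and Scd1 rose in mock by 0.92 ± 0.06. The mevalonate pathway enzymes Mvd and Mvk rose by 0.66 ± 0.08 and 0.45 ± 0.02, the fatty acid desaturases Fads2 and Fads1 by 0.64 ± 0.09 and 0.50, and the sterol sensors Insig1 and Insig2 by 0.57 ± 0.04 and 0.49 ± 0.01.

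Of 33 genes of hypoxia and glycolysis, 8 rose and 0 fell, with a median of 0.25, against 7.26% and 6.12% of all genes. Car9, the carbonic anhydrase that hypoxia induces, had ratios of -3.40 and -2.85 over mock, against -1.69 and -1.19 over no knockdown. Its arrays did not overlap. Car9 rose by 1.68 ± 0.03, the peptide hormone Adm by 1.58 ± 0.42 and Higd1a, a mitochondrial protein, by 0.93 ± 0.13. Of the 8 genes 0 encode an enzyme of glycolysis, and they include Ero1a, an oxidase of the endoplasmic reticulum (0.78 ± 0.03), and P4ha1, named above with the collagens. Above 0 in both pairs were 21 of the 33 and below 0 were 6, against 37.8% and 42.2% of all genes. Pfkfb3 (0.73), Pfkm (0.43), Pfkp (0.35) and Pfkl (0.31) were higher in both pairs and did not pass. Slc2a3 (-0.50 ± 0.09), Hilpda (-0.29 ± 0.01), Hk1 (-0.29) and Pkm (-0.14) were lower in both pairs and did not pass. Vegfa (-0.10), Slc2a1 (0.03) and Ldha (-0.04), which had spots at the repeated value, did not pass either.

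Immediate early genes, which serum and stress switch on within minutes, had 8 fallen and 2 risen of 36 and a median of -0.35, against 6.12% fallen and 7.26% risen of all genes, so the rises are near the share of all genes. Atf3, a stress-induced repressor, had ratios of 0.44 and 3.47 over mock, against -1.42 and 1.68 over no knockdown. The 2 kinds of array overlapped because Atf3 was higher in the Bre1b than in the Bre1a knockdown, and within the pairs it fell by 1.82 ± 0.05. The phosphatase Dusp2 fell by 1.30 ± 0.18, the nuclear receptor Nr4a1 by 1.01 ± 0.05, Btg2 by 0.98 ± 0.01 and Fos by 0.93 ± 0.03. Spry1, a brake on growth factor signalling, rose by 1.15 ± 0.11 and the ligand Hbegf by 0.64 ± 0.04.

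The stress lists had no common direction. Of 41 genes of heat shock and oxidative stress, 7 fell and 3 rose, with a median of -0.14, where all genes had 6.12% fallen and 7.26% risen. Beside Slc7a11, the small heat shock protein Hspb1 fell by 1.11 ± 0.12 and the thioredoxin reductase Txnrd1 by 0.69 ± 0.05, while the glutathione transferases Gsta4 and Gstm1 rose by 1.07 ± 0.13 and 0.92 ± 0.06. Of 37 genes of the integrated stress and unfolded protein responses, 2 fell, namely Atf3 and Slc7a11, and 0 rose, with a median of -0.01. Of 41 p53 targets 6 rose and 3 fell, the falls near the 6.12% of all genes and the rises against 7.26%, with a median of -0.01. Among them Gadd45a rose by 1.15 ± 0.03 and the death receptor Fas by 0.95 ± 0.09.

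**Figure D5:**
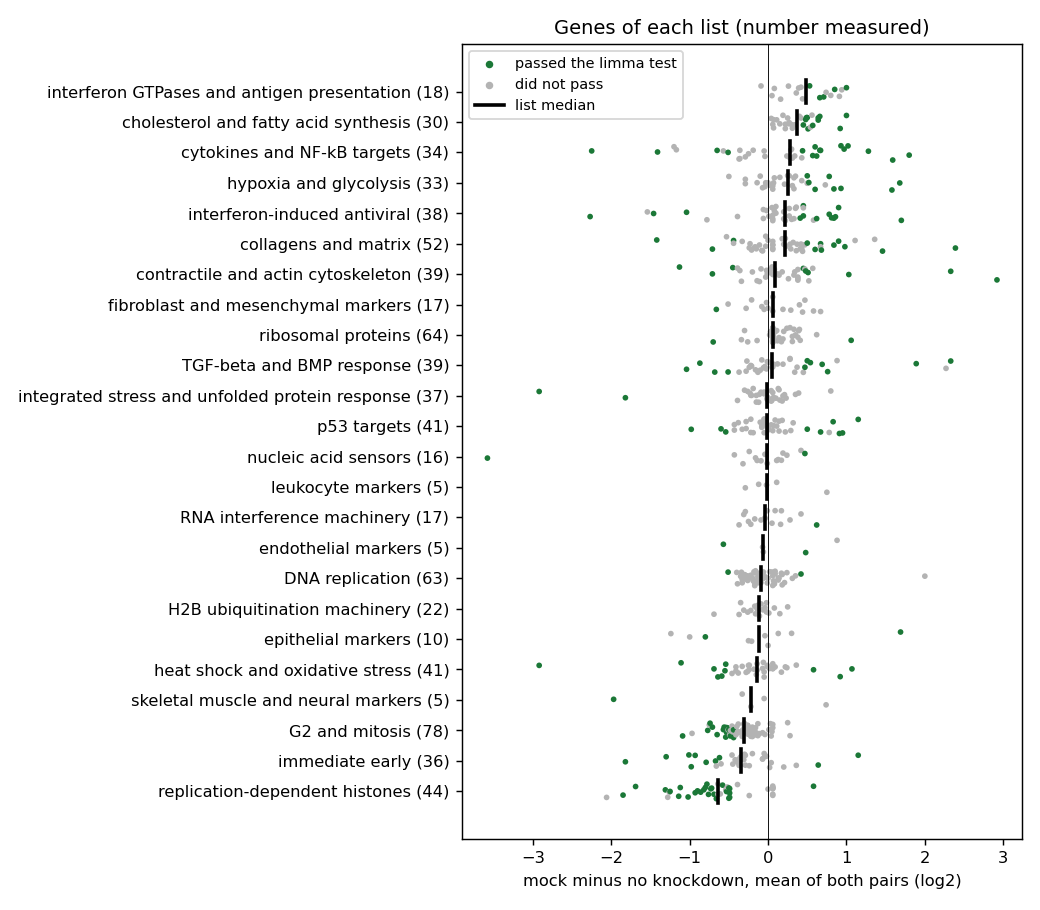
Each point is the mean of both pairs for 1 gene, mock minus no knockdown in log2 on the x axis, in rows by gene list with the number measured in brackets. Green points passed the limma test, grey points did not and black bars are list medians. Medians run from -0.64 for the histones at the bottom to 0.48 for the interferon GTPases and antigen presentation at the top.

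The genes that the other channel was aimed at differed little between the controls. Rnf20 (Bre1a) was at -0.17 ± 0.12 and Rnf40 (Bre1b) at -0.37 ± 0.15, and neither passed (limma adjusted p 0.198 and 0.0842). Of the 22 measured genes of the H2B ubiquitination machinery 0 rose and 0 fell, against 7.26% and 6.12% of all genes, with a median of -0.12. Dot1l, the H3K79 methyltransferase, was the one of them past 0.5 in the same direction in both pairs, at -0.69 ± 0.18 (limma adjusted p 0.0526). Usp7, a deubiquitinase, went opposite ways, at -1.14 in the Bre1a pair and 0.69 in the Bre1b pair. Of 64 ribosomal protein genes 1 rose and 1 fell, with a median of 0.06. Rpl22 rose by 1.06 ± 0.02 and Rps24 fell by 0.70, with its 2 probes at -1.04 and -0.37, while 34 of the 64 sat at the repeated value. That median is the difference of the repeated value itself. Without those spots the list was shorter, and 6 of its genes rose and 2 fell. In that run 789 rose and 708 fell of all 8264 genes, more than in the main run.

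Markers of other cells were mostly without values on all 4 arrays. Of 28 leukocyte markers 5 were measured and 0 rose or fell, with Cd14 at -0.29, S100a8 at -0.12 ± 0.12 and Ncf4 at 0.75 ± 0.72. Among 10 epithelial markers Krt8, a keratin of simple epithelia, rose by 1.69 ± 0.18 and Epcam fell by 0.80 ± 0.07. Among 5 endothelial markers Flt1, a VEGF receptor, rose by 0.48 ± 0.05 and Egfl7 fell by 0.57 ± 0.08, and among 5 of muscle and nerve the neurofilament Nefl fell by 1.97 ± 0.35. Of 17 fibroblast and mesenchymal markers Prrx1, a factor of limb mesenchyme, fell by 0.66 ± 0.01 and 0 rose. Of all genes 7.26% rose and 6.12% fell. The medians of these marker lists lay between -0.22 and 0.06, and their part in the results above was not tested.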

How the data were processed

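Mock and untreated RIF-1 cells were compared through 4 two-colour arrays, with 19874 to 22255 values each. The authors deposited log2 ratios of Cy5 over Cy3, with the dyes per the labels; the base of the logarithm was read from the values. How spots were read, corrected, normalized and filtered is not given in the sources used here. A repeated value fills 691 to 828 spots of an array (within 0.002), and these may hold no measured difference. Their mock minus no knockdown is -0.07 in the Bre1a pair and 0.19 in the Bre1b pair. Image records in the labels place both arrays of a pair together, so each difference lies within 1 such set.

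Probes were named through GEO's platform annotation: of 38784 probes 22204 had 1 symbol, 0 several and 16580 none. All 22204 symbols were found by gene ID in a RefSeq gene table of GRCm38.p6, and 0 changed. The 12958 named probes with 4 values were averaged into 8676 genes, 2821 of them with several probes, and in 25 of these probes differed by at least 0.5 in opposite directions. With limma 3.58.1 (R 4.3.3), lmFit and eBayes fitted a coefficient per knockdown and a control term, which leaves 1 residual degree of freedom beside 1.57 prior ones. Tests were two-sided, with p-values adjusted by Benjamini-Hochberg over 8676 genes and called under 0.05. The knockdown shared by 2 arrays, named in the labels, is the block, and the deviations of paired arrays correlated at 0.68 over genes. The script was tested on simulated data. The number of arrays limits the precision.

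Named genes were Acta2, Ifit1, Plk1, Rnf20 and Rnf40, the 12 highest and 12 lowest by the smaller of both differences in size, and up to 5 called members of each of 24 gene lists in 1 direction by the same order (up to 3 uncalled where 0 passed). Other members are named as examples, chosen after their values were seen. The genes and lists were chosen with earlier results of these data known. Promoter windows are RefSeq's, searched on both strands for motifs. Alternatives were centring, scaling, repeated values left out, 1 probe per gene, robust eBayes, all probes, no pairing and each pair alone. Scanner intensities were not analysed here.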

Additional observations from a re-analysis of the deposited data

Results flagged for a closer look

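Adam12, a membrane metalloprotease of developing muscle and matrix, was past 2-fold in opposite directions in the pairs, at 2.19 in the Bre1a pair and -1.36 in the Bre1b pair. The gap between the pairs was 3.54 in log2. Its log2 ratios were -0.23 and -2.70 over mock, against 1.96 and -4.06 over no knockdown, from 1 probe. It was singled out because both pairs estimate the same contrast and it belongs to the list of collagens and matrix, and the difference was not tested. It is 1 of 19 genes past 2-fold in opposite directions, and 10 of the others had a wider gap.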

How the results depend on the processing

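Leaving out the pairing (no replicate block) gave 0 called genes in limma in place of 1161, with a lowest adjusted p of 0.0511 and 862 genes at an unadjusted p under 0.05. Scaling all arrays to 1 spread gave 0 (lowest adjusted p 0.0624, 3459 genes unadjusted), 1 probe per gene gave 0 (0.0524, 3706) and testing all 18620 probes gave 0 (0.0709, 7115 probes unadjusted). Centring gave 1320 with 1101 shared, leaving out repeated values 1497 with 1153 shared, and robust eBayes 1162 with 1144 shared. Leaving out spots at ratios of whole numbers up to 5 as well, chosen after seeing the data, gave 1697 with 1101 shared. The cause of these shifts was not tested.

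With 1 pair left out, which permits no test, 234 to 269 genes were at least 2-fold higher and 129 to 253 at least 2-fold lower in mock, in place of 131 and 68. Over genes, those counts ran from 117 to 136 and from 58 to 73 under the other alternatives, and over all probes they were 231 and 224. Of 101 named genes 0 changed direction under any alternative. All of them had both differences in the same direction, most by the rule that picked them, so leaving out 1 pair could not reverse any. Of the 101, 89 lost their call when arrays were scaled, 1 probe was used or the pairing was dropped. The median of the histones ran from -0.73 to -0.60, that of G2 and mitosis from -0.33 to -0.31 and that of lipid synthesis from 0.31 to 0.39. Less stable medians were those of ribosomal proteins (-0.07 to 0.31) and contractile genes (0.02 to 0.22). So were those of endothelial markers (-0.12 to 0.23) and epithelial markers (-0.29 to -0.02). Where the test called any, 6 to 13 contractile genes rose. The 6 as reported stood beside 630 risen of all 8676 genes, and the 13 beside 883 of 7910.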

Other observations

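Some genes outside the lists, picked after their values were seen, also differed by over 2-fold in both pairs. Ogn and Aspn, small leucine-rich proteoglycans of connective tissue, rose by 1.97 ± 0.20 and 1.97 ± 0.32. Entpd1, an enzyme that degrades extracellular ATP, rose by 2.26 ± 0.26, the decoy receptor Il1r2 by 1.94 ± 0.05, the adhesion molecule Mcam by 1.95 ± 0.08, the cystathionine lyase Cth by 1.85 ± 0.15 and the signalling inhibitor Socs2 by 1.83 ± 0.11. The forkhead factor Foxq1 fell by 1.90 ± 0.17, the growth factor Btc by 1.57 ± 0.08 and Bnc1, a zinc finger protein of keratinocytes and germ cells, by 1.56 ± 0.08.

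Of 5662 probes with 4 values and no gene symbol, 58 were at least 2-fold higher and 123 at least 2-fold lower in mock in both pairs, and 32 were past 2-fold in opposite directions. In the Bre1a pair 2177 probes had a value on the array over mock only and 543 on the array over no knockdown only, while in the Bre1b pair these were 432 and 1187.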
